A study of Mus musculus with 2 samples.

Results

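Pleiotrophin (Ptn) and midkine (Mdk), the extracellular sulfatases Sulf1 and Sulf2, the syndecans Sdc1, Sdc2 and Sdc4 and the glypicans Gpc1, Gpc3 and Gpc4 were examined in mouse embryonic fibroblasts (MEFs) with and without Bmi1. They were chosen by function, as 10 genes of 18194 on the array, and every probe set annotated to exactly 1 of them was taken, which gave 24 probe sets of 45101. The list was drawn up with the ratios of these arrays already known, so the values below are a description and carry no test. RNA came from 2 cell lines, 1 wild-type for Bmi1 and 1 Bmi1 null, hybridised to 1 Affymetrix mouse expression array each. Both lines were derived from littermate embryos, both carried the TBX2.pBabePURO construct whose TBX2 immortalised them, both were grown untreated in serum-supplemented DMEM, and the labels give both as male C57BL/6. Whether a line was 1 clone and the age of the embryos are not stated in the sources used here. Bmi1 is a subunit of Polycomb repressive complex 1, which ubiquitylates histone H2A, and the arrays were made to learn which genes change expression in its absence.

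Heparan sulfate is a sulfated sugar chain carried by proteoglycans. Syndecans hold such chains at the cell surface through a transmembrane core protein, and glypicans through a lipid anchor. The chains bind growth factors, among them the related secreted proteins pleiotrophin and midkine, and present them to receptors, while the Sulf enzymes trim sulfate groups from chains outside the cell. In connective tissue the system is known for tuning growth factor signalling, and pleiotrophin for roles in bone, nerve and the growth of mesenchyme.

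The signal given below is the MAS5 intensity of a probe set, a linear value in arbitrary units that can be compared between arrays but not between probe sets. Signals under a floor of 100 were taken as not above background, and a ratio against the floor is a bound, written as at least N-fold. Ratios are Bmi1 null over wild-type, on the log2 scale where so named. Each group had a single array, so effects of genotype cannot be told apart from those of the line, its culture or its array. The only error available was how far the log2 ratios of different probe sets for the same gene lay apart, an SD of 0.27 to 0.31 depending on signal.

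The arrays were comparable in quality, with 18 spike-in probe sets at null over wild-type folds of 0.890 to 1.06 and ratios of 3' to 5' signal of 1.20 and 1.15 for beta-actin. Bmi1 itself read 9933 (wild-type) and 2146 (null) at 1 probe set and 931 and 831 at the other. Where these probes lie relative to the deletion is not known here. The Y-linked genes Eif2s3y (1683 and 23.3), Uty (1187 and 26.5) and Kdm5d (712 and 15.3) were above the floor in wild-type cells alone, which goes against the label male for the null line, and Xist read 153 and 124. No result below can be given without that line, because it is the whole of the null group. Among fibroblast genes, vimentin (Vim, 19519 and 19233), Col1a2 (15048 and 17030) and fibronectin (Fn1, 14137 and 12777) were far above the floor on both arrays, whereas Thy1 was below it in null cells (375 and 50.7). Of all 12 fibroblast markers, 4 were past 2-fold upwards in null cells and 1 downwards, where all measured genes gave 5.73% and 5.16%. The 4 were Col3a1 (4617 and 20209), Col6a1 (3208 and 10409), Col1a1 (6860 and 14841) and Lum (68.0 and 729), and the 1 was Thy1.

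Of the 10 genes, 9 had a signal above the floor on at least 1 array. At the probe set with the highest mean signal, Ptn and Sulf1 passed 2-fold upwards in null cells, Gpc1 passed it downwards, and 6 genes differed less. Among these 6, Mdk had only a bound and was placed at its value. Of all 11766 measured genes, 5.73% passed 2-fold upwards and 5.16% downwards. In sign alone, 8 of the 9 genes were higher in null cells, against 50.6% of all measured genes. The median log2 ratio of the 9 was 0.75, and that of all measured genes 0.0060. At the level of probe sets, 21 of 24 were measured, of which 19 were higher and 2 lower in null cells. Of these, 7 passed 2-fold upwards and 1 downwards, where all measured probe sets with 1 gene symbol gave 5.06% and 5.1%. Because these ratios were known when the genes were chosen, nothing is read from the counts beyond the description.

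**Figure D1:**
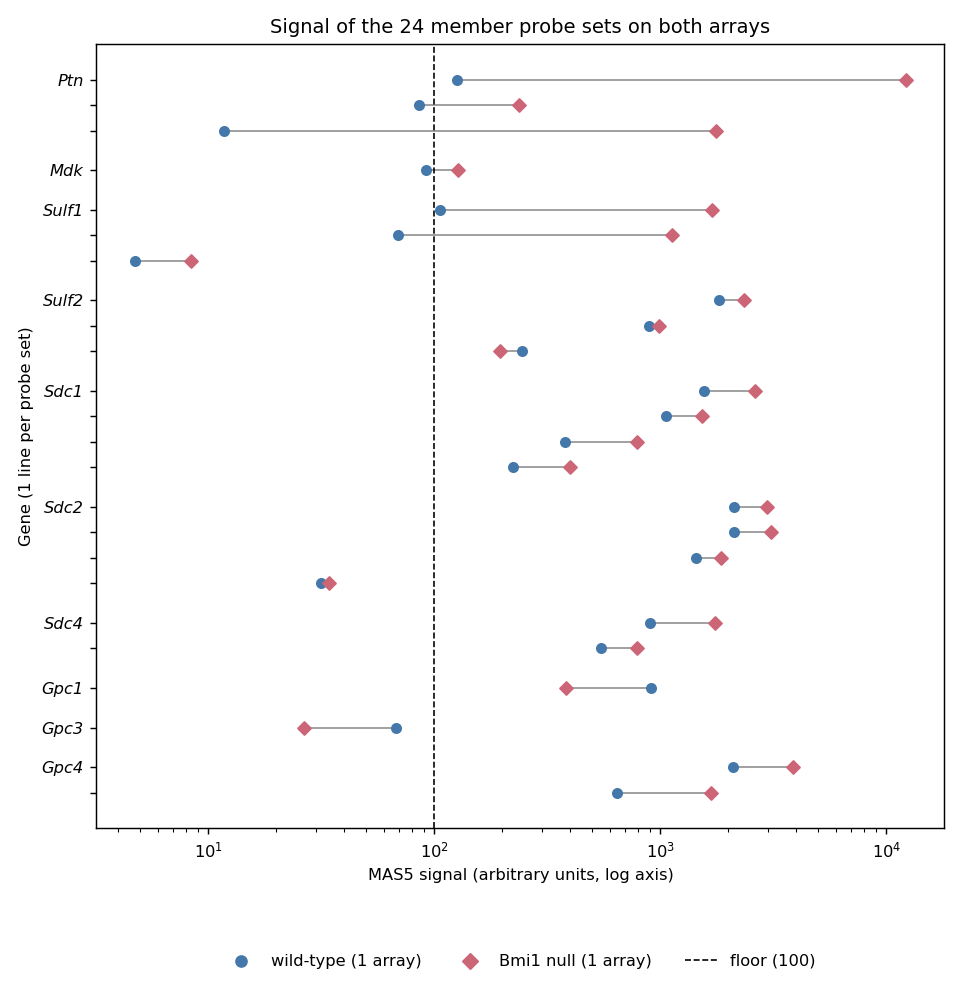
MAS5 signal (x axis, log scale, arbitrary units) of each of the 24 probe sets of the 10 genes (y axis, 1 line per probe set) on the wild-type array (blue circles) and the Bmi1 null array (red diamonds), with no replicate and the floor of 100 dashed. The longest lines belong to probe sets of Ptn and Sulf1, and those of Sdc1, Sdc2 and Sdc4 are short and all point to higher null signal. Gpc1 runs the other way, from 905 to 385, as do Gpc3, below the floor, and the dimmest Sulf2 probe set.

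Ptn, a heparin-binding growth factor, had the largest difference of the 10 genes. Its brightest probe set (1448254_at) read 126 on the wild-type and 12197 on the null array, so that the wild-type signal lay just above the floor and the null signal was 96.8-fold higher (log2 ratio 6.60). A second probe set (1416211_a_at), annotated with the same cDNA record, read 11.7 and 1757, a difference of at least 17.6-fold. The third (1443173_at), annotated with a different record, read 85.3 and 238, or at least 2.38-fold. All 3 probe sets were thus higher in null cells, but their sizes were far apart, and for the last pair of probe sets only a lower bound can be given. The mean over the 3 log2 ratios, with bounds at their value, was 3.99. The ratio of the brightest probe set was rank 2 from the top among 11766 genes, a ranking in which bounds were placed at their value. Where neither signal was under the floor and the brighter was at least 500, the genes with the nearest ratio were the small leucine-rich proteoglycan Ogn (68.2-fold higher, 144 to 9835), Vnn1 (53.6-fold, 102 to 5477) and the prostacyclin synthase Ptgis (32.4-fold, 195 to 6332). Likeness here is the distance between log2 ratios over 2 arrays, 0.50 for Ogn, 0.85 for Vnn1 and 1.58 for Ptgis. Genes with a bound were left out of that search, among them Gpm6a, whose bound (log2 ratio at least 6.46) was rank 3 from the top, next to Ptn.

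Mdk, the only other member of the pleiotrophin family, did not share this difference. Its 1 probe set read 92.3 in the wild-type line and 127 in the null line, a bound of 1.27-fold (log2 ratio at least 0.35, against an SD between probe sets of 0.31 at that signal). Both signals were close to the floor, and that SD is classed by the brighter signal alone, so it may not cover a floored value.

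The sulfatases, which remove sulfate groups from heparan sulfate outside the cell, differed from each other. At its brightest probe set Sulf1 went from 106 in wild-type cells to 1694 without Bmi1, 16.0-fold higher (log2 ratio 4.0). A further Sulf1 probe set read 68.9 and 1130, at least 11.3-fold higher, and a dim one (4.75 and 8.43) did not reach the floor. Both measured Sulf1 probe sets therefore lay near the floor in wild-type cells and far above it in null cells. With wild-type signals this close to the floor the sizes depend on it, and a floor raised to 0.4 of the trimmed mean gave log2 ratios of at least 3.08 for Sulf1 and 5.93 for Ptn. Sulf2 was above the floor on both arrays at every probe set, and its signals lay close together: 1815 and 2351 at the brightest, 1.30-fold higher in null cells, 890 and 986 at the next (1.11-fold higher), and 245 and 196 at the dimmest (1.25-fold lower). Their log2 ratios ran from -0.32 to 0.37, so the direction of Sulf2 depended on the probe set, and their mean was 0.066.

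Sdc1, Sdc2 and Sdc4 were all higher in null cells, by less than 2-fold at the representative probe set. Sdc1, known best from epithelia and plasma cells, read 1557 and 2615 at its brightest probe set (1.68-fold higher). Its other probe sets read 1063 and 1535 (1.44-fold), 381 and 788 (2.07-fold) and 223 and 398 (1.78-fold). The 4 log2 ratios had a mean of 0.79 with an SD of 0.21 between probe sets, and none was near 0.

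Sdc2, the syndecan typical of mesenchymal cells, read 2125 and 3092 (1.46-fold higher), 2126 and 2954 (1.39-fold) and 1432 and 1862 (1.30-fold) at the probe sets above the floor. The remaining Sdc2 probe set was not above the floor (31.6 and 34.1). The 3 measured log2 ratios agreed closely, with a mean of 0.46 and an SD of 0.081.

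Sdc4, a syndecan of focal adhesions, read 904 and 1751 (1.94-fold higher) and 549 and 792 (1.44-fold higher). In all, 9 of 9 measured probe sets of Sdc1, Sdc2 and Sdc4 were higher in null cells. Of these, 1 reached 2-fold, the Sdc1 probe set at 2.07-fold, where 5.06% of all measured probe sets with 1 gene symbol passed it upwards. The 9 are repeated readings of 3 genes chosen with their ratios known, so the count carries no test. Sdc3, not among the chosen genes, was 1.16-fold lower at its brightest probe set, and 1.07-fold lower and 1.10-fold higher at its others. The size at the representative probe set was 2.80 times the SD between probe sets for Sdc1, 2.03 times for Sdc2 and 3.19 times for Sdc4. That SD covers no difference between cultures or arrays.

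The glypicans went in different directions. The single Gpc1 probe set read 905 with and 385 without Bmi1, 2.35-fold lower, and was the 1 gene of the 9 measured with a higher wild-type signal at the representative probe set. Gpc4 read 2087 and 3858 at its brightest probe set, 1.85-fold higher in null cells, and 643 and 1670 at the other, 2.60-fold higher, so that whether it passed 2-fold depended on the probe set. The mean of the Gpc4 log2 ratios was 1.13. Gpc3, loss of which causes an overgrowth syndrome in humans, was not detected above the floor in either line at its 1 probe set (67.8 and 26.7) and has no ratio.

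Gpc3 and Gpc4 are neighbours on the X chromosome, with 0 protein-coding genes between them in the RefSeq annotation, and yet Gpc4 was far above the floor and Gpc3 below it in both lines. The bases upstream of their start sites are shown with that of Ptn, the gene with the largest difference, because the study grouped promoters by their density of CpG dinucleotides. Each line gives the 250 bases before the RefSeq start (GRCm38.p6), on the strand of the gene, with each CG in capitals. The windows are chr6:36810180-36810429 for Ptn, chrX:52164924-52165173 for Gpc4 and chrX:52613975-52614224 for Gpc3, all on the minus strand.
Ptn: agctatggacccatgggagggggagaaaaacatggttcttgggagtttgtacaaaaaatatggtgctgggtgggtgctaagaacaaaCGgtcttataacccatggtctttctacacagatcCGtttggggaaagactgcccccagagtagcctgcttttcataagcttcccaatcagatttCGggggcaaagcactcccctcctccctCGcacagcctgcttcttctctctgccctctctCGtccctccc
Gpc4: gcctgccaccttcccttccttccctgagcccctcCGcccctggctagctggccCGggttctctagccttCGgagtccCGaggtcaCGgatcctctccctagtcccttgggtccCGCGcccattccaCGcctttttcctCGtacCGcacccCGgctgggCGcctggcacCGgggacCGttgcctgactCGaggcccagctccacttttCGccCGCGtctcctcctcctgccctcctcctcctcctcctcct
Gpc3: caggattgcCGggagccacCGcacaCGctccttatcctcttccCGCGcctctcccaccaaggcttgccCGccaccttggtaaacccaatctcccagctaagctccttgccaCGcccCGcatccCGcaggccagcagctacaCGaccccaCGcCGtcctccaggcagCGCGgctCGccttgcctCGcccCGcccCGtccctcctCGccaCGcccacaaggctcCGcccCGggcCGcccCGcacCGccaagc

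The Ptn window held 5 CG and a G+C content of 52.0%, close to the medians of 6 CG and 52.4% over 32851 windows of the same length. Gpc4 held 18 and Gpc3 held 25, numbers reached by 21.7% and 10.7% of all windows. The sequence GGGCGG (GC box, either strand) occurred 1 time upstream of Gpc4 and 3 times upstream of Gpc3, was not found in the Ptn window, and is present in 32.7% of all windows; each match also contains a CG. TATAAA (either strand), present in 12.4% of windows, was found in none of these 3. Among the other members with a window, Sdc4 held 19 CG, Sdc1 held 10, and the 2 start sites of Sulf2 held 21 and 10. The CpG-rich windows thus belonged to genes with signals above and below the floor alike.

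**Figure D2:**
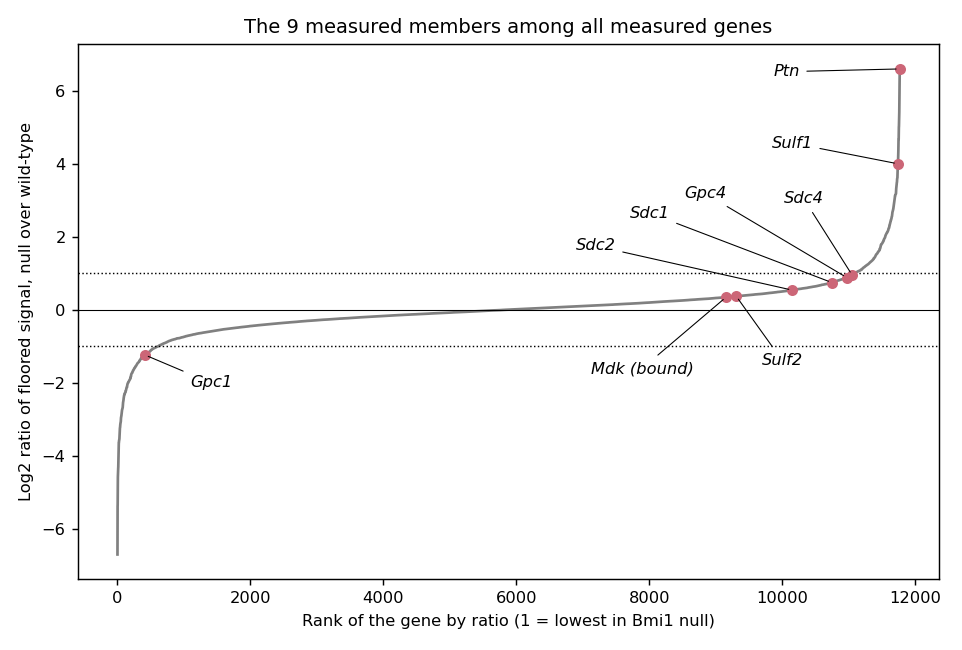
Log2 ratio of floored signal, null over wild-type (y axis), of all 11766 measured genes in rank order (x axis, grey line), with the 9 measured members marked by red points and 2-fold by dotted lines. Ptn and Sulf1 sit at the steep upper end, Sdc1, Sdc2, Sdc4, Gpc4, Sulf2 and Mdk lie between 0 and 1, and Gpc1 lies at -1.23.

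Ordered by log2 ratio, Ptn (6.60) and Sulf1 (4.0) came first, followed by Sdc4 (0.95), Gpc4 (0.89), Sdc1 (0.75), Sdc2 (0.54), Sulf2 (0.37), Mdk (at least 0.35) and Gpc1 (-1.23). From Sdc4 to Mdk, neighbours in this order were apart by 0.026 to 0.21, less than 1 SD between probe sets, and cannot be ordered. The gaps of 2.60 between Ptn and Sulf1, 3.05 between Sulf1 and Sdc4 and 1.58 between Mdk and Gpc1 were larger than that spread. The first of these depended on the probe set, because the means over measured probe sets were 3.99 for Ptn and 3.75 for Sulf1.

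Receptors and binding partners described for pleiotrophin and midkine were examined next, 12 genes of which 10 were measured. At the representative probe set, 2 passed 2-fold upwards and 2 downwards in null cells, where all measured genes gave 5.73% and 5.16%. The median log2 ratio was -0.21 beside 0.0060 for all measured genes. Ptprz1, a receptor tyrosine phosphatase that carries chondroitin sulfate and is bound by pleiotrophin, read 3429 with and 9954 without Bmi1 (2.90-fold higher). Its other probe sets read 1011 and 3975 (3.93-fold) and 114 and 373 (3.26-fold), so all 3 were higher by similar factors. Neuropilin 1 (Nrp1), a coreceptor for VEGF and semaphorins, read 933 and 3897 (4.18-fold higher), with 297 and 1620 (5.46-fold) and 241 and 1390 (5.77-fold) at the next probe sets. The dimmest Nrp1 probe set was near the floor (73.1 and 111, at least 1.11-fold higher).

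Integrin subunits that take part in binding these factors were lower or near equal. The alpha6 subunit Itga6 read 1839 and 784 (2.35-fold lower) and 480 and 245 (1.96-fold lower). The beta3 subunit Itgb3 read 437 with Bmi1 and 48.9, under the floor, without it, so it was lower by at least 4.37-fold. Its other probe set did not reach the floor in either line. The alpha4 subunit Itga4 was 1.77-fold lower at its brightest probe set (755 and 427) and 2.74-fold, 1.52-fold and at least 1.26-fold lower at others. For the alphaV subunit Itgav the values were 12824 and 11438 at the brightest probe set and 935 and 611 at the other above the floor, 1.12-fold and 1.53-fold lower. The beta1 subunit Itgb1 differed by 1.08-fold to 1.18-fold at its 3 measured probe sets, all higher in null cells.

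Among the remaining partners, the endocytic receptor Lrp1 read 4030 and 2324 (1.73-fold lower in null cells), and at least 1.46-fold lower at another probe set. Nucleolin (Ncl), mainly a nucleolar protein, read 12112 and 10207 at its brightest probe set, 1.19-fold lower, and its others ran from 1.29-fold lower to 1.59-fold higher. The phosphatase Ptprs, a proteoglycan receptor, read 3214 and 3811 (1.19-fold higher) and 289 and 254 (1.14-fold lower). The receptor tyrosine kinases Alk (46.1 and 57.0) and Ltk (7.67 and 5.86) were below the floor on both arrays.

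**Figure D3:**
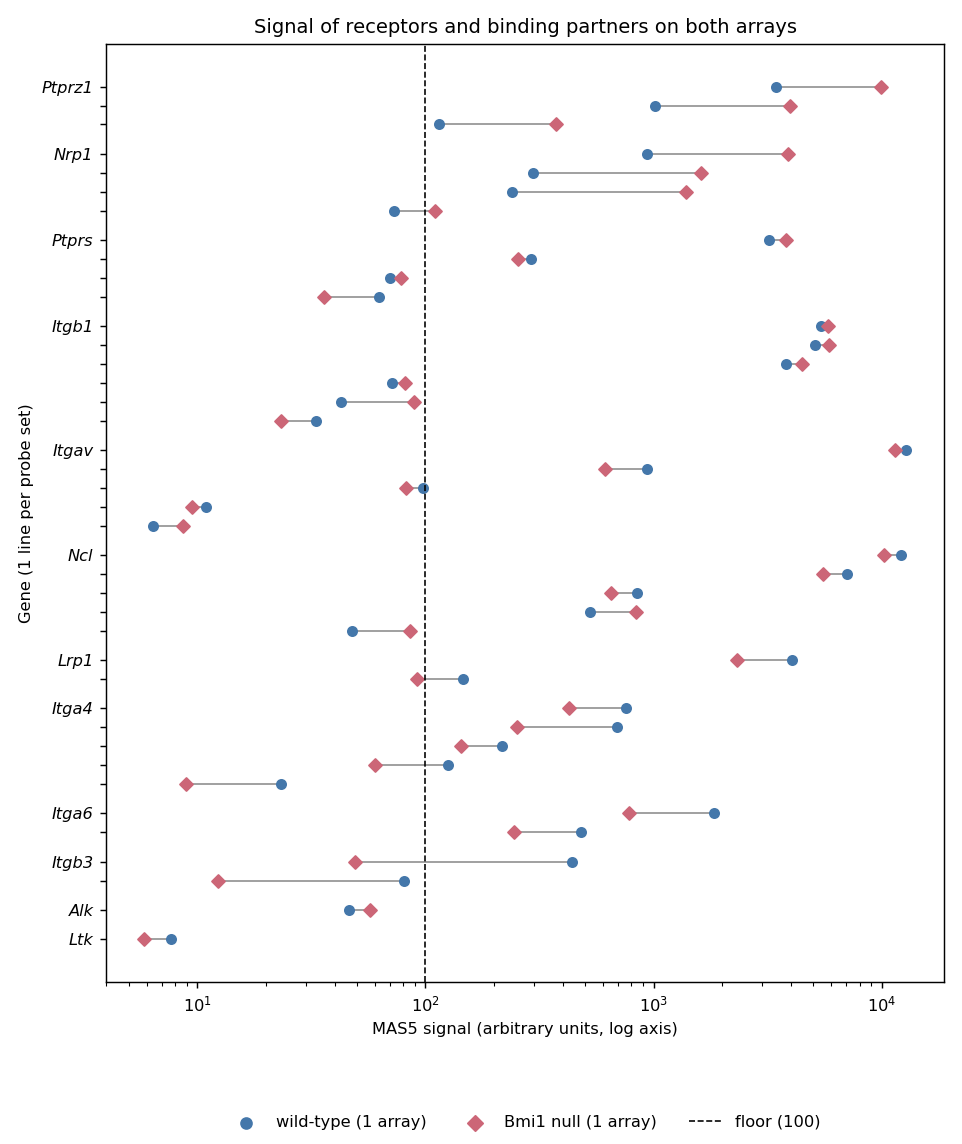
MAS5 signal (x axis, log scale, arbitrary units) of every probe set (y axis, 1 line each) of 12 receptors and binding partners on the wild-type array (blue circles) and the Bmi1 null array (red diamonds), 1 array per group, floor of 100 dashed. The probe sets of Ptprz1 and Nrp1 run to higher null signal, those of Itga4, Itga6 and Itgb3 to lower null signal, and Itgb1 lies within 1.18-fold where it is above the floor.

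Of 9 further heparan sulfate proteoglycans, 6 were measured, with 1 past 2-fold upwards and 2 downwards (median log2 ratio 0.035). The shares over all measured genes were 5.73% and 5.16%. Gpc6, a glypican of mesenchymal tissue, read 331 with and 2647 without Bmi1 (8.0-fold higher). Its other probe sets read 538 and 1389 (2.58-fold), 101 and 1040 (10.3-fold), 78.3 and 321 (at least 3.21-fold) and, below the floor, 57.1 and 96.9. Its neighbour in the genome, Gpc5, was below the floor in both lines (9.08 and 2.74), as was Gpc2 (37.9 and 99.8).

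Betaglycan (Tgfbr3), a coreceptor for TGF-beta, read 2515 and 875 (2.87-fold lower in null cells), and at least 2.34-fold lower at another probe set. Col18a1, the collagen that yields endostatin, read 1046 and 371 (2.82-fold lower) and 1359 and 242 (5.61-fold lower). Perlecan (Hspg2) of basement membranes read 909 and 1110 (1.22-fold higher) and 348 and 758 (2.18-fold higher). Agrin (Agrn), which organises synapses on muscle, read 485 and 644 (1.33-fold higher). Sdc3, the remaining syndecan, differed little, with 1004 and 863 (1.16-fold lower), 253 and 238 (1.07-fold lower) and 212 and 232 (1.10-fold higher). Serglycin (Srgn), a proteoglycan of blood cell granules, was below the floor (2.52 and 5.77).

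Of 33 genes listed for building heparan sulfate chains, 30 matched a probe set with 1 symbol and 26 were measured. Of these, 2 passed 2-fold upwards and 0 downwards (median log2 ratio -0.022). The other 24 lay within it, with Extl1 and Hs3st6 placed at their bounds. With 5.73% and 5.16% of all measured genes past 2-fold, these counts were near the background. Papss2, which makes the sulfate donor PAPS, read 316 and 1161 (3.68-fold higher in null cells), with 122 and 541 (4.44-fold) and 46.2 and 289 (at least 2.89-fold) at other probe sets. Pxylp1, the xylose phosphatase of the linkage region, read 1594 and 3332 (2.09-fold higher) and 555 and 1280 (2.31-fold). The chain polymerases Ext1 (3618 and 3376) and Ext2 (1685 and 1780) differed by log2 ratios of -0.10 and 0.079, and the epimerase Glce (3126 and 3216) by 0.041. The other Glce probe sets were lower in null cells, with log2 ratios of -0.32 and -0.56. Among the sulfotransferases, log2 ratios were -0.57 for Hs2st1 (2315 and 1555), 0.22 for Hs6st1 (303 and 353) and 0.60 for Hs6st2 (3137 and 4756). For Ndst2 the log2 ratio was -0.28 (421 and 347). Ndst1, Xylt1 and Hs3st5 had no probe set with 1 symbol and were not assessed. The 3-O-sulfotransferases measured were dim, with Hs3st1 at -0.052, Hs3st2 at -0.044, Hs3st3b1 at -0.42 and Hs3st6 at least 0.14.

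Of 8 measured genes of heparan sulfate breakdown, 1 passed 2-fold upwards and 0 downwards (median log2 ratio 0.16), beside 5.73% and 5.16% of all measured genes. The 1 was Ids, the lysosomal iduronate sulfatase, 2.04-fold higher in null cells (2032 and 4136). Ids was also 2.00-fold higher at another probe set (304 and 608) and at least 1.21-fold at one more. Heparanase (Hpse), which cuts the chains outside the cell, read 171 and 20.4, lower without Bmi1 by at least 1.71-fold, and was counted at that bound.

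Of 11 measured genes for shedding, processing and cytoplasmic partners, 2 passed 2-fold downwards and 0 upwards (median log2 ratio -0.34). Over all measured genes the shares were 5.16% and 5.73%. The gelatinase Mmp9 read 895 with Bmi1 and 95.6, just under the floor, without it, a difference of at least 8.95-fold, and its other probe set gave at least 11.1-fold (1110 and 14.4). The scaffold Cask, which binds the syndecan tail, was lower at all 4 probe sets, by 2.24-fold at the brightest (1668 and 744) and by 2.07-fold to 4.10-fold at the others. Syntenin (Sdcbp), another partner of the syndecan tail, read 10154 and 6184 (log2 ratio -0.72), and the protease furin, which processes glypicans, 2561 and 1434 (-0.84). The sheddases Adam10 (4748 and 8856, log2 ratio 0.90), Mmp14 (6059 and 9413, 0.64) and Adam17 (608 and 625, 0.040) were not lower.

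Chondroitin sulfate synthesis, which shares the linkage region with heparan sulfate, differed in both directions. Of its 14 measured genes, 3 were past 2-fold upwards and 2 downwards (median log2 ratio 0.23), beside 5.73% and 5.16% of all measured genes. Csgalnact1, which starts the chondroitin chain, read 2317 and 230 (10.1-fold lower in null cells), and at least 7.20-fold lower at another probe set (720 and 63.5). The sulfotransferase Chst11 read 653 and 265 (2.46-fold lower) and Chst12 356 and 921 (2.59-fold higher). The epimerase-like gene Dsel read 657 and 1878 (2.86-fold higher). The remaining gene past 2-fold upwards, Chst7, read 33.8 and 412, a bound of at least 4.12-fold.

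**Figure D4:**
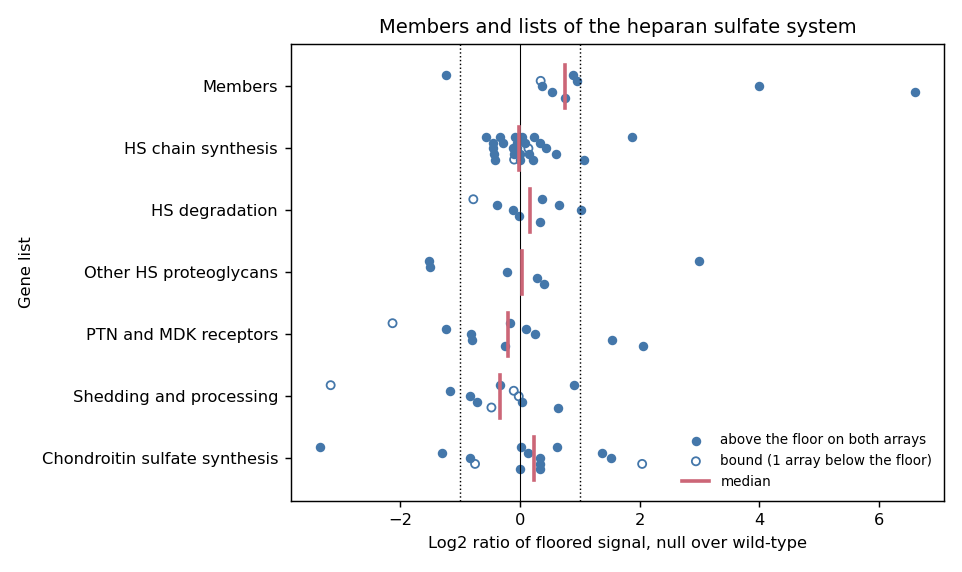
Log2 ratio of floored signal, null over wild-type (x axis), of each measured gene of the members and of 6 gene lists (y axis), with filled points above the floor on both arrays, open points for bounds, red bars for medians and dotted lines at 2-fold. The genes of heparan sulfate (HS) chain synthesis have a median of -0.022, and the members one of 0.75. The members were chosen with their ratios known, so nothing is read from the difference between these medians.

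Markers of other cell types differed between the lines along with Ptn, Sulf1 and the receptors. In bulk RNA, fewer cells of a type and less RNA per cell cannot be told apart. Signals cannot be compared between probe sets, so a summed signal mainly follows its brightest genes and does not measure a cell type. Of 8 smooth muscle markers, 5 were above the floor in wild-type and 8 in null cells. At the representative probe set, 5 passed 2-fold upwards and 0 downwards (median log2 ratio 2.32), where all measured genes gave 5.73% and 5.16%. The 5 were Smtn (290 and 1695), Lmod1 (153 and 854), Cnn1 (at least 22.9-fold higher), Mylk (at least 7.49-fold) and Myh11 (at least 4.49-fold). The summed signal of the 8 was 21646 and 37529. Most of it was Acta2 (1.45-fold higher in null cells) and Tagln (1.57-fold). Cartilage and bone markers had 1 of 9 above the floor in wild-type and 6 in null cells (summed signal 1125 and 5038). Col11a1 read 729 and 3794, and Mgp 21.0 and 547. Acan (75.8 and 102), Comp (56.3 and 118), Alpl (68.0 and 143) and Col2a1 (9.29 and 190) crossed the floor but stayed within 2-fold of it. Sp7 was below the floor on both arrays. Mesothelial markers had 3 and 5 of 8 above the floor, with 2 past 2-fold upwards and 1 downwards. Their summed signal was 3571 and 12067, and most of the null sum was Gpm6a (4.52 and 8828). Upk3b read 188 and 1693 and, in the other direction, Msln read 3006 and 1031. Wt1 and Krt19 were below the floor on both arrays.

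Neural and glial markers had 6 of 8 above the floor in each line (4671 and 9969), with Map2 at 243 and 2132, Ncam1 at 2340 and 5256, Sox10 at 126 and 169 and, in the other direction, Tubb3 at 330 and 122. Epithelial markers had 2 of 8 above the floor in each (540 and 1304), Cdh1, Krt8 and Krt18 being below it on both arrays. Epcam read 149 and 834 (5.59-fold higher in null cells) at 1 probe set and was under the floor at the other (5.82 and 11.5). Krt5 read 149 and 155. Endothelial markers had 2 and 3 of 7 above the floor (535 and 504), and Pecam1, Tek and Vwf were below it on both arrays. Cdh5 read 208 and 29.2, lower in null cells by at least 2.08-fold. Emcn and Esam were above the floor in null cells alone, and only just (103 and 101). Blood cell markers had 3 of 7 above the floor in each line (1560 and 875), and Ptprc and Cd68 were below it. Most of that sum was Cd14 (1012 and 453, 2.24-fold lower in null cells). The part of these cell types in the differences of Ptn, Sulf1 and the proteoglycans was not tested.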

How the data were processed

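The deposited values were intensities on a linear scale, 1 per probe set and array, which the authors derived with the MAS5 algorithm per the labels. With 2% of the values removed at each end, the mean was 500 on both arrays, so the authors had scaled both to 1 target. Scaling of this kind hides any change that most transcripts share. The scaling settings are not given in the sources used here, detection calls were not used, and the number of arrays limits the precision.

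Probe sets were named from the platform annotation; of 45101, 34958 had 1 gene symbol, 932 had several and 9211 had none there, and only the first were used. Of the symbols, 34754 were found by Entrez identifier in the RefSeq gene table of assembly GRCm38, and 0 changed. Of the probe sets of each of 18194 genes, the one with the highest mean of both log2 signals stood for the gene. Signals below 0.2 times the trimmed mean (100) were set to that floor. A gene at or below it on both arrays counted as not measured. One below it on 1 array has a ratio that is a lower bound, placed at its value in counts and medians. A gene counted within 2-fold by a bound may therefore differ by more. With 1 array per group no test was run. Precision was described by the SD of log2 ratio differences between the pair of probe sets with the highest signal of a gene, over the square root of 2. It was 0.31 for a brighter signal of 100 to 500 (602 pairs), 0.30 for 500 to 2000 (2168 pairs) and 0.27 above (1821 pairs), and covers probe set error only. Because the brighter signal alone set the class, the SD may not hold where the other signal was near or under the floor, as for Ptn, Sulf1 and Mdk. Alternatives changed the floor, the choice of probe set, the scaling and the fold threshold.

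The members and the gene lists were chosen with earlier results of these data known. Genes named outside the members were the receptor list and the other proteoglycans in full, up to 6 genes a further list past 2-fold in either direction with a signal of at least 500, the marker genes, and the 3 genes with the ratio nearest to that of Ptn among those above the floor on both arrays with a signal of at least 500. Genes of the further lists named within 2-fold, or below that signal, were chosen after their values were seen. Upstream sequences came from RefSeq (GRCm38.p6), which matched 6 of 10 members. Python 3.11.15, pandas 2.3.3, NumPy 2.4.6 and SciPy 1.17.1 were used, and the scripts were tested on simulated data.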

Additional observations from a re-analysis of the deposited data

How the results depend on the processing

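No paired analysis was possible because each group had 1 array and the labels gave no replicate numbers. For the same reason no array could be left out. In 8 alternatives (other floors, a pseudocount, the mean over probe sets, probe sets without the suffixes _s_at, _x_at and _a_at, quantile normalization and equal medians), 2 or 3 members were at least 2-fold higher, and the number at least 2-fold lower was 1, except without a floor, where it was 2 because Gpc3 then entered. With a threshold of 1.5-fold, 5 members were higher (12.5% of all measured genes) and with 3-fold 0 were lower (2.21%). Across these alternatives the log2 ratio ranged from 3.99 to 6.64 for Ptn, 3.08 to 4.04 for Sulf1, 0.53 to 0.79 for Sdc1, 0.46 to 0.58 for Sdc2, 0.74 to 1.00 for Sdc4, 0.86 to 1.13 for Gpc4, 0.24 to 0.46 for Mdk (not measured with the higher floor) and -1.23 to -1.05 for Gpc1. Sulf2 ranged from -0.32 to 0.42 and was lower only without the suffixed probe sets. Over all genes, 674 higher and 607 lower became 2347 and 1580 without a floor, since signals near background then entered. The median log2 ratio changed sign for heparan sulfate chain synthesis (-0.056 to 0.023) and breakdown (-0.063 to 0.34), whereas the medians of the other 4 lists kept theirs.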
